A study of Mus musculus with 19 samples.

Results

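The SLC25 family was described in mouse liver after light had been used for 2 h or 4 h to excite AgRP neurons, the hunger-promoting cells of the hypothalamic arcuate nucleus. Members were all genes that the authors' comparison tables name Slc25a followed by a number, joined to the counts by gene identifier. The tables name 44 such genes, of which 43 had counts in all 19 libraries, out of 14319 genes with counts there. A filter on low counts kept 41 members among 12493 genes. Slc25a2 and Slc25a31 did not pass it, with 0 to 4 and 0 to 5 counts per library. Slc25a43 had no row of counts, and the authors' deposited table for 4 h lists it with a mean normalised count of 0.641.

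Blue light of 473 nm was given in pulses of 10 ms at 20 Hz with 3 s on and 1 s off, and food was absent meanwhile. All mice had 1 floxed copy of channelrhodopsin-2, a light-gated cation channel, at ROSA26 (labelled ROSA26 ChR2 fl/wt). Mice labelled tg also carried 1 copy of the AgRP-IRES-Cre driver (tg/wt), which restricts the channel to cells that express agouti-related peptide, and mice labelled wt did not (wt/wt). Light began at zeitgeber time 5.5 for the 2 h groups (4 tg and 5 wt mice) and at 3.5 for the 4 h groups (5 tg and 5 wt mice), and every liver was taken at zeitgeber time 7.5. The labels give the diet as Random Fed and state no age. No tg mice went without light, so excitation and carriage of the driver cannot be told apart, and p-values set group differences against the spread between mice. In whole liver, fewer cells of a type and less RNA per cell cannot be told apart either.

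Most SLC25 proteins are carriers of the inner mitochondrial membrane, built from a tandem repeat of membrane helices that alternately open to either side. They move nucleotides, phosphate, amino acids, carboxylates, carnitine esters and cofactors between the cytosol and the matrix. In liver they serve urea synthesis, gluconeogenesis, fatty acid oxidation and the supply of citrate for lipid synthesis, pathways whose enzymes lie partly inside and partly outside the mitochondrion.

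Total counts per library ran from 21474255 to 32721605. Mitochondrially encoded genes took 7.75% of counts in tg 2 h replicate 1 and 7.83% in wt 4 h replicate 1, against 10.0% to 12.9% in the other 17 libraries. These libraries and tg 4 h replicate 3, doubted from earlier results of these data, were also left out together: 4 members were then called at 2 h and 13 at 4 h, in place of 3 and 9. The share of all genes called in that fit is not given here, so this change is not read as a result about the carriers. Summed hepatocyte markers (Alb, Apoa1, Ttr, Cps1 and Hnf4a) stood between 52358 and 91941 CPM (counts relative to the scaled library total) in every library, and Cidea, the 1 of 6 muscle and adipocyte markers with counts, reached at most 0.396 CPM. Of the markers of Kupffer cells, endothelium, stellate cells, T and NK cells, B cells and neutrophils none was called in tg against wt. Of 5 cholangiocyte markers 1 was called, Sox9, which fell by 1.04 ± 0.25 (SE, log2) at 2 h. The median over these 5 was 0.34 at 2 h, with Krt19 at 0.93, Epcam at 0.67, Spp1 at 0.34 and Krt7 at 0.05, not called.

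Promoter windows of 300 bases, 250 before and 50 after an annotated start, were available for 33 of the 43 members, 43 windows in all. On both strands they were searched for the cAMP response element TGACGTCA and its core TGACG, which lies within it, the E-box CACGTG, the glucocorticoid receptor palindrome ACANNNTGT, the FoxO motif GTAAACA, the ATF4 element TGATGNAA, the PPAR direct repeat and the NRF1 palindrome. TGACGTCA was in 2 of the 43 windows and in 1.79% of all 32851, TGACG in 13 and 20.8%, CACGTG in 8 and 7.15%, and ACANNNTGT in 4 and 6.85%. The other 4 motifs were in 0 of 43, against 3.65% for GTAAACA, 3.97% for TGATGNAA, 0.0396% for the PPAR repeat and 0.971% for the NRF1 palindrome, of all windows. The windows of 3 genes are shown because they belong to members with higher RNA in tg livers and hold TGACGTCA or CACGTG, which stand in capitals. All 3 genes lie on the minus strand, and each window is written 5′ to 3′ on it (RefSeq, build GRCm38.p6). The Slc25a25 window is chr2:32424017-32424316, 1 of 3 for this gene, with TGACGTCA starting 150 bases before the start. The Slc25a33 window is chr4:149774218-149774517, with CACGTG 8 bases before the start. The Slc25a15 window is chr8:22398228-22398527, 1 of 2, with CACGTG 77 bases before it. The other windows with CACGTG belong to Slc25a1, Slc25a13, Slc25a14 (overlapping windows that hold the same site), Slc25a31 and Slc25a36. Slc25a31 did not pass the filter on low counts and was not tested, and none of the others was called. The other window with TGACGTCA also belongs to Slc25a36. The windows of Slc25a22 (3 of them), Slc25a29, Slc25a34 and Slc25a42 held neither motif. Slc25a51 and Slc25a37, the other called members, had no window and were not searched. A match describes letters, not a binding site.
Slc25a25: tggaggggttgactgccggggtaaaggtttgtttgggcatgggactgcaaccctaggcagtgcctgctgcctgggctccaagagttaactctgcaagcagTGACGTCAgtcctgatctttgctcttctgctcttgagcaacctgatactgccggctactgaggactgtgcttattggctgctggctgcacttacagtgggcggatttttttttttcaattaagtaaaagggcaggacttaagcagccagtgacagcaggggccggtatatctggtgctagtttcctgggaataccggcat
Slc25a33: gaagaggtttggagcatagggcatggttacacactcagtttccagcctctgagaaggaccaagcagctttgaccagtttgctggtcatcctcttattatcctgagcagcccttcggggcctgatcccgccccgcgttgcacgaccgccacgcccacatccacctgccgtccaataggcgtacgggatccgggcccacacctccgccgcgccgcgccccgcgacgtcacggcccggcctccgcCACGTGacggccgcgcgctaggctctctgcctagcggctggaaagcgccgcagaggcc
Slc25a15: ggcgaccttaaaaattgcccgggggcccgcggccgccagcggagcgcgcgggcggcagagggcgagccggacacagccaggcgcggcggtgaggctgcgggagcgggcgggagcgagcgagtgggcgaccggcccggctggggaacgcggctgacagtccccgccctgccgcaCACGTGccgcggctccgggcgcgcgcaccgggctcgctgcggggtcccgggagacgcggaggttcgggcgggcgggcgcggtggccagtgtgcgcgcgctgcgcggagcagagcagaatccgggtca

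Before any comparison, levels were set side by side per kb of the longest coding transcript. Slc25a47, a liver-enriched carrier whose substrate is less settled, had the highest level in wt 2 h livers, 441 ± 112 CPM per kb (SD, n = 5), and was first in all 4 groups. Slc25a5, an ADP/ATP carrier, followed with 270.0 ± 13.9 CPM per kb, but 67.1% of its 31-base words also occur in other annotated genes, so its count is uncertain. Next came Slc25a39, a carrier needed for glutathione import (225 ± 36.7), Slc25a3, the phosphate carrier (154 ± 18.6), and Slc25a1, the citrate carrier (144 ± 22.2 CPM per kb). Slc25a15, the ornithine carrier, was in place 8 in wt 2 h, at 72.5 ± 9.19 CPM per kb, and in place 4 in tg 4 h, at 203 ± 34.6 CPM per kb (SD, n = 5). Within groups the fitted members had a median coefficient of variation of 16.1%, from 6.54% for Slc25a11, the oxoglutarate carrier, to 56.0% for Slc25a30, an uncoupling-protein-like carrier.

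**Figure D1:**
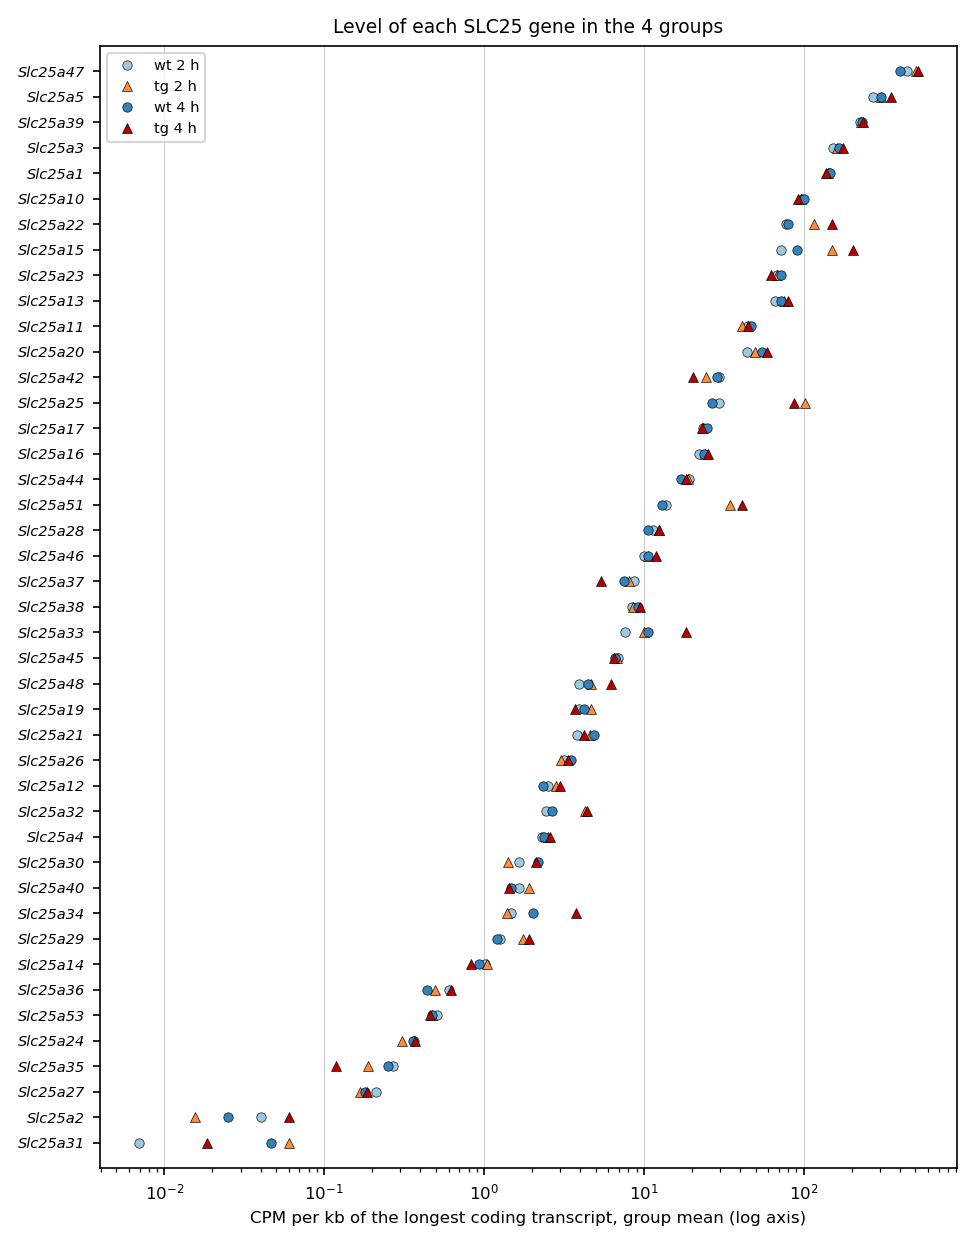
Mean level of the SLC25 genes, in CPM per kb of the longest coding transcript on a log axis, for each of the 4 groups. Slc25a47 is at the top with 441 CPM per kb in wt 2 h, and Slc25a15 stands at 72.5 in wt 2 h and 203 in tg 4 h.

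The comparison of tg with wt at each duration asked which carriers differed in RNA after excitation. After 2 h, 3 of 41 members (7.32%) rose and 0 fell, by edgeR's quasi-likelihood test at a Benjamini-Hochberg adjusted p of 0.05, which called 2.16% of all genes (1.14% higher and 1.02% lower). They were Slc25a51, Slc25a25 and Slc25a15, carriers of NAD, of ATP-Mg and of ornithine. After 4 h, 7 members rose (these 3 with Slc25a22, Slc25a29, Slc25a33 and Slc25a34) and 2 fell (Slc25a37 and Slc25a42), so 22.0% were called, against 11.4% of all genes (5.75% higher and 5.64% lower). The median log2 fold change over fitted members was 0.07 at both durations, beside 0.01 over all genes at 2 h and -0.01 at 4 h. With libraries scaled by total counts only, the members' median was 0.00 at 2 h and -0.02 at 4 h, beside -0.06 and -0.10 over all genes. Under that scaling 5 members rose and 3 fell at 4 h, beside 411 and 1120 of all 12493 genes. Under upper-quartile scaling 6 members rose and 3 fell at 4 h, beside 608 and 828 of all genes. The share of higher calls among all called genes thus went from 50.5% to 26.8% and 42.3%. The number of genes called at 2 h was 270, and it was 165, 177, 151 and 161 without tg 2 h replicates 1, 2 and 5 and wt 2 h replicate 5. The 1423 genes at 4 h became 895 without wt 4 h replicate 3.

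The groups did not overlap for 7 members at 2 h (17.1%, against 6.00% of all genes) and for 5 at 4 h (12.2%, against 8.19%). At 2 h all tg libraries were above all wt libraries for Slc25a15, Slc25a16, Slc25a22, Slc25a25, Slc25a32 and Slc25a51, and below them for Slc25a42. At 4 h all tg libraries were above for Slc25a15, Slc25a22, Slc25a29, Slc25a34 and Slc25a51. In the authors' deposited tables, 5 members were called at 2 h, Slc25a32 and Slc25a22 beside the 3 above, and 9 at 4 h, with Slc25a48 in place of Slc25a37. Those tables called 523 of 13152 genes with an adjusted p at 2 h and 1605 of 13104 at 4 h. Slc25a51 had the smallest p-value of all genes in the authors' deposited table for 4 h.

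**Figure D2:**
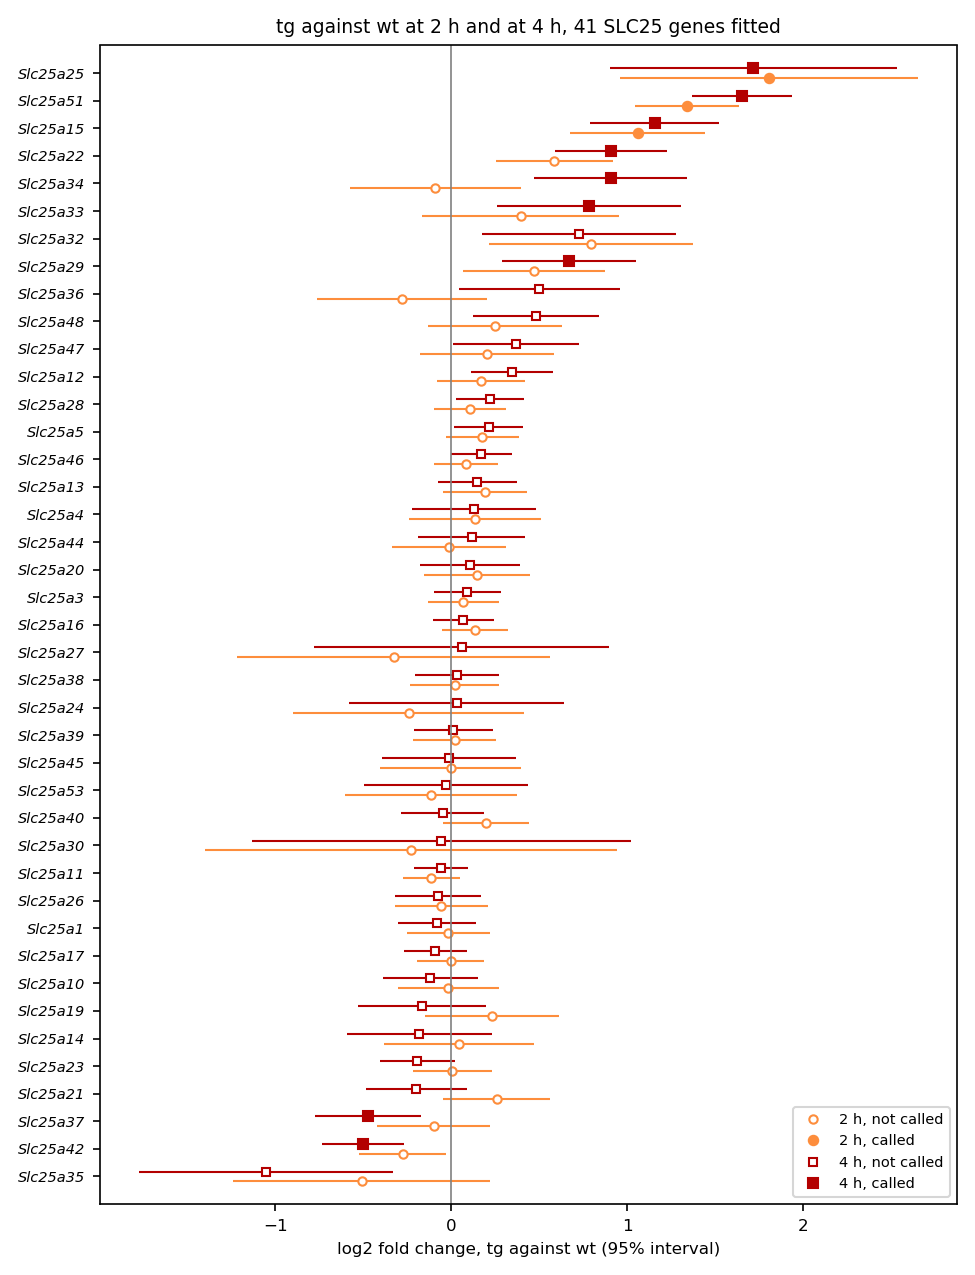
log2 fold change of tg against wt with its 95% interval for the 41 fitted SLC25 genes, at 2 h and at 4 h, with called genes marked. Slc25a25 and Slc25a51 lie farthest to the right, at 1.72 and 1.65 after 4 h, and Slc25a35 farthest to the left at -1.05, which was not called.

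Summed over the family, RNA stood at 3973 ± 313 CPM (SD, n = 5) in wt 2 h and at 4933 ± 307 CPM (SD, n = 4) in tg 2 h, with ranges of 3638 to 4396 and 4519 to 5202 CPM. After 4 h the sums were 4108 ± 301 CPM in wt and 5319 ± 188 CPM in tg (SD, n = 5 each), ranging from 3807 to 4537 and from 5040 to 5480.3 CPM. The groups did not overlap at either duration. With libraries scaled by total counts only, a check added after seeing the data, the 4 h sums did overlap, at 3659 to 4890.4 CPM in wt and 4723 to 5344 CPM in tg. Of the difference at 4 h, Slc25a15 held 31.8%, Slc25a47 18.3%, Slc25a25 17.8%, Slc25a22 16.3% and Slc25a51 10.3%, and at 2 h the same 5 genes held the largest shares, led by Slc25a15 with 28.1% and Slc25a25 with 27.0%. Slc25a47 itself did not pass the test, with log2 fold changes of 0.20 ± 0.18 (SE) at 2 h and 0.37 ± 0.17 at 4 h (edgeR, Benjamini-Hochberg adjusted p = 0.788 and 0.182). Summed hepatocyte markers ran from 59003 to 80783 CPM in wt 4 h and from 78439 to 91941 CPM in tg 4 h. Of these 5 genes only Hnf4a, a hepatocyte transcription factor, was called in tg against wt, at 4 h (0.54 ± 0.14, SE), and the part of hepatocyte content in the sums was not tested.

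Slc25a51 carries NAD into the matrix, where dehydrogenases of the citric acid cycle and fatty acid oxidation use it. The gene (ENSMUSG00000045973) spans positions 45395923 to 45408766 of chromosome 4. Positions are in build GRCm38, and all 9 called members lie on the minus strand. In wt 2 h replicates 1 to 5 its RNA stood at 55.9, 76.6, 60.4, 71.0 and 40.0 CPM, and in tg 2 h replicates 1, 2, 3 and 5 at 162, 163, 131 and 160.0 CPM. Slc25a51 RNA after 4 h stood at 64.9, 50.2, 51.0, 61.3 and 62.8 CPM in wt replicates and at 196, 169, 164, 181 and 203 CPM in tg. Every tg liver was thus above every wt liver of either duration, and the lowest tg value, in replicate 3 at 2 h, stood apart from the rest of its group. RNA rose by 1.34 ± 0.14 (SE) on the log2 scale at 2 h and by 1.65 ± 0.14 at 4 h, to 2.54 and 3.15 times the wt level (edgeR, Benjamini-Hochberg adjusted p = 4.84e-05 and 7.44e-07). It had rank 2 by p among all 12493 genes at both durations. The effect at 4 h exceeded that at 2 h by 0.31 on the log2 scale, with a 95% interval from -0.10 to 0.72 that includes 0. Of its 31-base words, 6.24% occur in other annotated genes.

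Slc25a25 exchanges ATP-Mg for phosphate under control of cytosolic calcium and so sets the adenine nucleotide content of the matrix. It (ENSMUSG00000026819) spans positions 32414487 to 32451445 of chromosome 2 and overlaps the coding gene Naif1 on the opposite strand. The libraries were stranded, but the sources used here do not say whether counting used the strand. Slc25a25 RNA after 2 h stood at 115, 153, 96.0, 94.1 and 59.5 CPM in wt replicates and at 438, 192, 436 and 381 CPM in tg. Slc25a25 RNA after 4 h stood at 56.4, 67.7, 118, 80.7 and 146 CPM in wt replicates and at 322, 423, 91.2, 454 and 254 CPM in tg. At 2 h the groups were separate, while at 4 h replicate 3 of tg lay inside the wt range and the other 4 tg livers above it. RNA rose by 1.81 ± 0.40 (SE, log2) at 2 h and by 1.72 ± 0.39 at 4 h (edgeR, Benjamini-Hochberg adjusted p = 0.0236 and 0.00814), and by 1.95 at 4 h without tg replicate 3. The 2 h call was lost when any 1 of tg 2 h replicates 1, 3 and 5 or wt 2 h replicates 1, 3, 4 and 5 was left out (log2 1.66 to 1.85, edgeR, Benjamini-Hochberg adjusted p = 0.0521 to 0.0698) and with a block for replicate number (1.85, adjusted p = 0.0700), the highest over its alternatives, of which the lowest was 0.000976. The window with TGACGTCA shown above belongs to this gene.

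Neither of the other 2 fitted carriers of the same transport class was called at either duration. In the mean of wt livers, Slc25a23 stood at 229.8 CPM (2 h) and 241 CPM (4 h) and had log2 fold changes of 0.01 ± 0.11 (SE) and -0.19 ± 0.10, and Slc25a24 stood at 1.25 and 1.24 CPM and had -0.24 ± 0.32 and 0.03 ± 0.29. Summed over the class, RNA ran from 296 to 385 CPM in wt 2 h and 454 to 673 CPM in tg 2 h, and from 292 to 378 CPM in wt 4 h and 298 to 667 CPM in tg 4 h.

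Among carriers of amino acids and glutathione, 1 of 9 fitted members was called at 2 h and 3 of 9 at 4 h, all higher. Of all genes, 1.14% were called higher at 2 h and 5.75% at 4 h. Slc25a15 exchanges cytosolic ornithine for matrix citrulline and is the mitochondrial transport step of the urea cycle. It (ENSMUSG00000031482) spans positions 22375551 to 22398597 of chromosome 8. In wt 2 h livers the values were 204, 272, 283, 251 and 234 CPM and in tg 433, 679.8, 367 and 593 CPM. In wt 4 h livers they were 449, 264, 255, 274 and 323 CPM and in tg 648, 619, 898, 613 and 710.0 CPM. The groups were separate at both durations, and wt 4 h replicate 1, 1 of the libraries with a low share of mitochondrially encoded counts, was the highest of the wt livers. RNA rose by 1.06 ± 0.18 (SE, log2) at 2 h and by 1.16 ± 0.18 at 4 h, a difference of 0.10 with a 95% interval from -0.43 to 0.62 (edgeR, Benjamini-Hochberg adjusted p = 0.00357 and 0.000288 for the rises). No 31-base word of it occurs in another annotated gene, nor do those of Slc25a22, Slc25a25, Slc25a29 or Slc25a33.

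Slc25a22 takes glutamate into the matrix together with a proton, where glutamate dehydrogenase can release ammonia from it. It (ENSMUSG00000019082) spans positions 141429744 to 141437892 of chromosome 7. Slc25a22 RNA after 2 h stood at 187, 217, 252, 223 and 209.6 CPM in wt replicates and at 289, 384, 253 and 380.5 CPM in tg. Slc25a22 RNA after 4 h stood at 256, 181, 259, 177 and 255 CPM in wt replicates and at 460.4, 303, 503, 442 and 408 CPM in tg. All tg values were above the wt values at both durations, at 2 h by a narrow margin in replicate 3. RNA rose by 0.91 ± 0.15 (SE, log2) at 4 h (edgeR, Benjamini-Hochberg adjusted p = 0.000720). At 2 h the log2 fold change was 0.59 ± 0.16 and missed the threshold (edgeR, Benjamini-Hochberg adjusted p = 0.0609), but passed it without tg 2 h replicate 3 (0.69, adjusted p = 0.0319) and by DESeq2 (0.59, adjusted p = 0.0150), within a range of adjusted p from 0.0150 to 0.231 over its alternatives. The difference between durations was 0.32, with a 95% interval from -0.14 to 0.78.

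Slc25a29 transports basic amino acids such as lysine, arginine and ornithine, and had a low level in every group. It (ENSMUSG00000021265) spans positions 108825873 to 108835883 of chromosome 12. Slc25a29 RNA after 2 h stood at 2.38, 2.65, 2.26, 3.23 and 1.96 CPM in wt replicates and at 4.72, 3.82, 2.67 and 2.56 CPM in tg. Slc25a29 RNA after 4 h stood at 3.01, 1.82, 2.24, 2.21 and 2.59 CPM in wt replicates and at 3.09, 3.83, 4.08, 3.82 and 4.07 CPM in tg. At 4 h the groups were separate, with tg replicate 1 just above the highest wt liver, and at 2 h they overlapped. RNA rose by 0.67 ± 0.18 (SE, log2) at 4 h (edgeR, Benjamini-Hochberg adjusted p = 0.0218). The call was lost without any 1 of tg 4 h replicate 5 and wt 4 h replicates 2, 3 and 4 (0.59 to 0.64, adjusted p = 0.0505 to 0.0654), with total counts only (0.58, adjusted p = 0.0571) and with a block for the number ending each title (0.62, adjusted p = 0.0672), all by edgeR, within a range of 0.00523 to 0.0672 over its alternatives. At 2 h it was 0.47 ± 0.19, not called (edgeR, Benjamini-Hochberg adjusted p = 0.309). The other 6 fitted amino acid and glutathione carriers were not called: the highest of these at 4 h was Slc25a12, an aspartate-glutamate carrier, at 0.34 ± 0.11 (edgeR, Benjamini-Hochberg adjusted p = 0.0522), and the lowest Slc25a40, a relative of Slc25a39, at -0.05 ± 0.11.

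**Figure D3:**
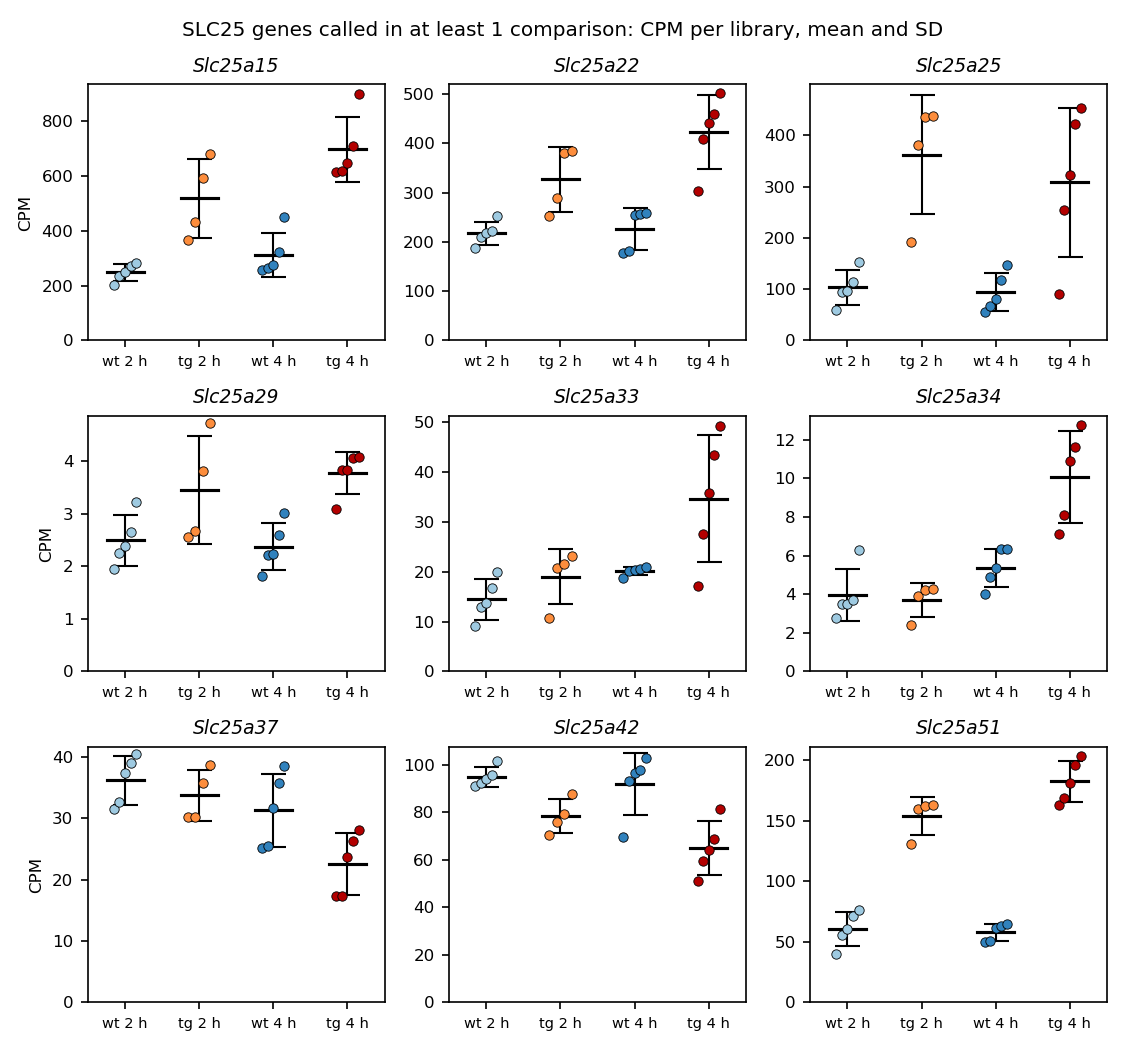
CPM per library of the SLC25 genes called in at least 1 comparison, 1 panel per gene and 1 column per group, with the mean and the SD as error bars, on axes that start at 0. For Slc25a51 the tg livers stand at 131 to 203 CPM and the wt livers at 40.0 to 76.6 CPM, while for Slc25a25 1 tg 4 h liver, at 91.2 CPM, lies among the wt livers.

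Of 9 fitted carriers of other nucleotides and cofactors, 1 was called higher at 2 h, and 2 higher and 1 lower at 4 h, Slc25a51 among them. The test called 2.16% of all genes at 2 h and 11.4% at 4 h. Slc25a33 brings pyrimidine nucleotides into the matrix for mitochondrial DNA and RNA synthesis. It (ENSMUSG00000028982) spans positions 149744036 to 149774277 of chromosome 4, and its promoter window with CACGTG is shown above. Slc25a33 RNA after 2 h stood at 9.04, 13.0, 16.7, 20.0 and 13.7 CPM in wt replicates and at 20.7, 10.8, 21.5 and 23.1 CPM in tg. Slc25a33 RNA after 4 h stood at 18.7, 20.1, 20.6, 20.4 and 20.97 CPM in wt replicates and at 35.8, 27.6, 17.2, 49.3 and 43.5 CPM in tg. At 4 h the wt livers lay close together, 4 tg livers were above all of them and tg replicate 3 was below all of them. RNA rose by 0.78 ± 0.25 (SE, log2) at 4 h, close to the threshold (edgeR, Benjamini-Hochberg adjusted p = 0.0498), and by 0.96 without tg replicate 3 (adjusted p = 0.00646). It was called in 7 of 22 alternatives, over which the adjusted p ran from 0.00646 to 0.133. Leaving out any 1 of the other 9 livers at 4 h (wt replicates 1 to 5 and tg replicates 1, 2, 4 and 5) ended the call, with 0.62 to 0.85 and, by edgeR with Benjamini-Hochberg adjustment, adjusted p = 0.0517 to 0.133. At 2 h the log2 fold change was 0.39 ± 0.27, not called (edgeR, Benjamini-Hochberg adjusted p = 0.660). Slc25a36, the other pyrimidine nucleotide carrier, was not called at either duration, with -0.28 ± 0.23 at 2 h and 0.50 ± 0.22 at 4 h.

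Slc25a42 carries coenzyme A into the matrix in exchange for adenine nucleotides. It (ENSMUSG00000002346) spans positions 70184340 to 70212305 of chromosome 8. Slc25a42 RNA after 2 h stood at 92.2, 102, 95.5, 91.1 and 93.9 CPM in wt replicates and at 87.8, 75.9, 70.5 and 79.2 CPM in tg. Slc25a42 RNA after 4 h stood at 69.5, 93.2, 97.6, 103 and 96.5 CPM in wt replicates and at 68.8, 50.9, 81.2, 59.4 and 64.0 CPM in tg. At 2 h every tg liver was below every wt liver, and at 4 h tg replicate 3 and wt replicate 1 crossed. RNA fell by 0.50 ± 0.11 (SE, log2) at 4 h (edgeR, Benjamini-Hochberg adjusted p = 0.00609), to 0.706 of the wt level. At 2 h the log2 fold change was -0.28 ± 0.12, not called (edgeR, Benjamini-Hochberg adjusted p = 0.348), and the difference between durations was -0.23 with a 95% interval from -0.57 to 0.11. Slc25a16, another carrier linked to coenzyme A, had 0.13 ± 0.09 at 2 h and 0.07 ± 0.08 at 4 h and was not called.

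Slc25a32, a carrier of flavin and folate, was the highest uncalled member of the family at both durations. In wt 2 h livers the values were 16.1, 15.7, 8.37, 17.3 and 15.1 CPM and in tg 20.8, 23.9, 29.1 and 26.7 CPM, all above. In wt 4 h livers they were 24.8, 13.7, 7.06, 14.1 and 18.3 CPM and in tg 29.1, 32.8, 16.1, 27.9 and 23.7 CPM, which overlapped. The log2 fold changes were 0.80 ± 0.28 (SE) at 2 h and 0.73 ± 0.26 at 4 h (edgeR, Benjamini-Hochberg adjusted p = 0.193 and 0.0846). The 4 h value passed the threshold without tg replicate 3 (0.86, adjusted p = 0.0389) or without wt replicate 1 (0.96, adjusted p = 0.0165), by edgeR with Benjamini-Hochberg adjustment, and the 2 h value passed it in a fit of the 2 h groups alone (0.79, adjusted p = 0.0425). Over all alternatives the adjusted p ran from 0.0425 to 0.375 at 2 h and from 0.00454 to 0.180 at 4 h.

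Slc25a37, mitoferrin-1, imports iron for heme and iron-sulfur synthesis and is best known from erythroid cells. It (ENSMUSG00000034248) spans positions 69241848 to 69285112 of chromosome 14, and 9.07% of its 31-base words occur in other annotated genes. Slc25a37 RNA after 2 h stood at 40.6, 31.5, 37.4, 32.6 and 39.0 CPM in wt replicates and at 35.8, 30.3, 38.7 and 30.2 CPM in tg. Slc25a37 RNA after 4 h stood at 25.2, 31.6, 38.5, 35.7 and 25.5 CPM in wt replicates and at 17.4, 28.1, 17.3, 23.7 and 26.3 CPM in tg. At 4 h the groups overlapped, with 3 tg livers below every wt liver. RNA fell by 0.47 ± 0.15 (SE, log2) at 4 h (edgeR, Benjamini-Hochberg adjusted p = 0.0397) and was at -0.10 ± 0.15 at 2 h, not called. The call was lost in 10 of 22 alternatives, among them those without any 1 of tg 4 h replicates 1, 3 and 4 and wt 4 h replicates 2, 3 and 4 (-0.49 to -0.39, adjusted p = 0.0592 to 0.127) and with a block for replicate number (-0.47, adjusted p = 0.0716), by edgeR with Benjamini-Hochberg adjustment, and over all alternatives the adjusted p ran from 0.0177 to 0.127. Of 7 erythroid markers 6 had counts, and their summed level ran from 253 to 791 CPM in wt 2 h, 253 to 462 CPM in tg 2 h, 361 to 634 CPM in wt 4 h and 244 to 485 CPM in tg 4 h. None of the 5 fitted ones was called at either duration. Their median log2 fold change was -0.67 at 2 h, where Slc25a37 was at -0.10, and -0.55 at 4 h, while Alas2, the erythroid enzyme that starts heme synthesis, was at 0.24 ± 0.15 (SE) and 0.29 ± 0.14. Their part in the fall of Slc25a37 was not tested. Slc25a28, mitoferrin-2, which is expressed more widely, was not called, at 0.22 ± 0.09 in the comparison at 4 h (edgeR, Benjamini-Hochberg adjusted p = 0.133).

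Of the 5 fitted members whose substrates are less settled, 1 was called, at 4 h, where 11.4% of all genes were called. Slc25a34 (ENSMUSG00000040740) spans positions 141618824 to 141623821 of chromosome 4. Slc25a34 RNA after 2 h stood at 3.4999, 2.79, 3.70, 6.29 and 3.5015 CPM in wt replicates and at 4.27, 3.91, 2.42 and 4.20 CPM in tg. Slc25a34 RNA after 4 h stood at 6.32, 4.00, 4.92, 5.34 and 6.32 CPM in wt replicates and at 10.9, 7.12, 11.6, 8.09 and 12.7 CPM in tg. The tg 4 h livers were above all other livers of the study, and at 2 h tg and wt overlapped. RNA rose by 0.91 ± 0.21 (SE, log2) at 4 h (edgeR, Benjamini-Hochberg adjusted p = 0.00743), while at 2 h the value was -0.09 ± 0.23, not called. The effect at 4 h exceeded that at 2 h by 1.00 ± 0.31, with a 95% interval from 0.34 to 1.65, but this difference did not pass the test over all genes (edgeR, Benjamini-Hochberg adjusted p = 0.637). Slc25a35, also of unsettled substrate, had a mean of 0.914 CPM in wt 4 h and 0.431 CPM in tg 4 h, a log2 fold change of -1.05 ± 0.35 that was not called (edgeR, Benjamini-Hochberg adjusted p = 0.0540). It passed the threshold without tg 4 h replicate 3 (-1.33, adjusted p = 0.0215) or wt 4 h replicate 1 (-1.24, adjusted p = 0.0146), by edgeR with Benjamini-Hochberg adjustment, within a range of 0.00526 to 0.164 over its alternatives.

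The remaining classes held no called member at either duration. Of the ADP/ATP and phosphate carriers, Slc25a5 had the highest log2 fold change at 4 h, 0.21 ± 0.09 (SE), and Slc25a3 the lowest, 0.09 ± 0.09. Among the 4 carriers of di- and tricarboxylates, which export citrate and exchange malate, all 4 h values were below 0, from -0.20 ± 0.14 for Slc25a21, the oxodicarboxylate carrier, to -0.06 ± 0.07 for Slc25a11. Slc25a20, the carnitine-acylcarnitine carrier of fatty acid oxidation, was at 0.15 ± 0.15 at 2 h and 0.11 ± 0.14 at 4 h. Slc25a48, a choline carrier, was at 0.25 ± 0.18 and 0.48 ± 0.17 (edgeR, Benjamini-Hochberg adjusted p = 0.709 and 0.0761), and passed the threshold at 4 h by DESeq2 (0.49, adjusted p = 0.0477), within a range of 0.00459 to 0.212 over its alternatives. The uncoupling-protein-like carriers ran from -0.18 ± 0.20 for Slc25a14 to 0.06 ± 0.40 for Slc25a27, whose mean level was 0.524 CPM in wt 4 h, and the sign of Slc25a27 turned with scaling or 1 library left out. Slc25a46, an outer membrane protein that acts in mitochondrial fission, was at 0.17 ± 0.08 at 4 h. Of all uncalled members, 29 of 38 at 2 h and 26 of 32 at 4 h had log2 fold changes within 0.25 of 0.

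**Figure D4:**
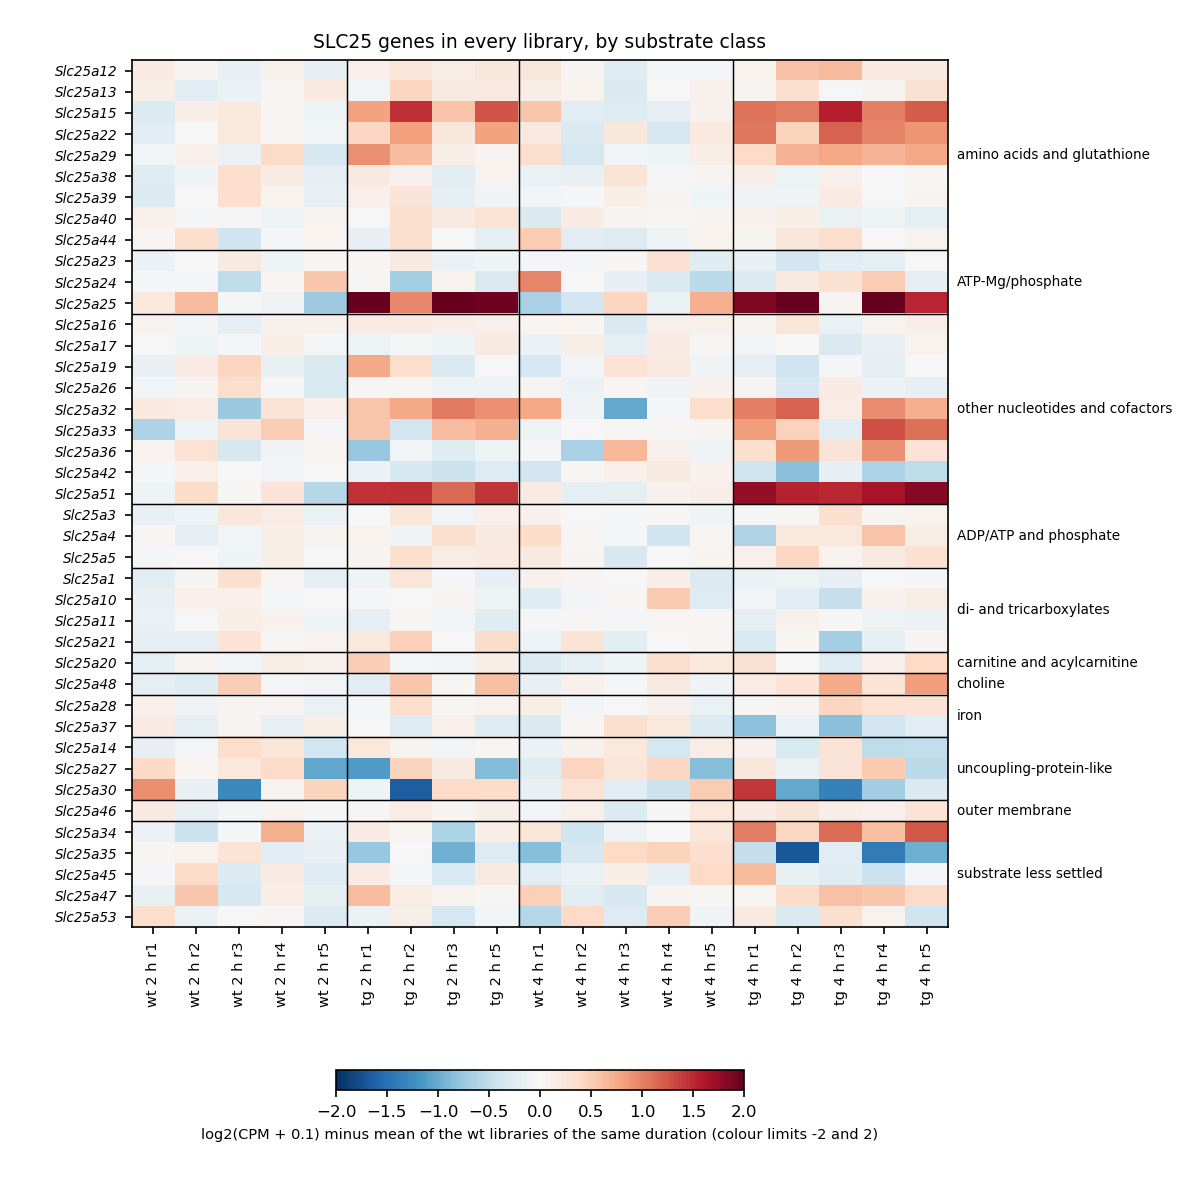
Colour map of the 41 fitted SLC25 genes (rows, by substrate class) in the 19 libraries (columns, by group): log2(CPM + 0.1) minus the mean of the wt libraries of the same duration. Slc25a15, Slc25a22, Slc25a25 and Slc25a51 are red in most tg columns, while most rows of the other classes stay pale. Slc25a25 in tg 4 h replicate 3 and Slc25a22 in tg 2 h replicate 3 lie close to the wt mean.

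Whether the effect of genotype grew from 2 h to 4 h was tested directly, and 0 of 41 members and 0 of 12493 genes (0%) were called by edgeR after Benjamini-Hochberg adjustment, with 3 members and 723 genes at an unadjusted p under 0.05. DESeq2 called 6 genes and 0 members, and limma-voom 0 genes. The 3 members were Slc25a34, Slc25a36 (0.78 ± 0.32, SE, log2) and Slc25a21 (-0.46 ± 0.20). So the 6 members called at 4 h and not at 2 h were not shown to differ between durations. Within tg livers, 4 h against 2 h, Slc25a34 was the 1 member called, higher by 1.45 ± 0.23 (edgeR, Benjamini-Hochberg adjusted p = 0.00692), against 0.913% of all genes. Among uncalled members of that comparison, Slc25a37 was at -0.58 ± 0.15 (edgeR, Benjamini-Hochberg adjusted p = 0.0764), with every tg 4 h liver below every tg 2 h liver, and Slc25a33 at 0.87 ± 0.27 (adjusted p = 0.152). The tg groups did not overlap for 5 members (12.2%, against 4.83% of all genes), Slc25a34, Slc25a46 and Slc25a51 above and Slc25a37 and Slc25a40 below at 4 h. Within wt livers 0 members were called and 0% of genes, with 3 members and 747 genes at an unadjusted p under 0.05, and DESeq2 called 1 gene and 0 members. In wt livers Slc25a34 was at 0.45 ± 0.21 (SE, log2), Slc25a33 at 0.48 ± 0.25 and Slc25a37 at -0.21 ± 0.14, the same signs as in tg livers. The wt groups did not overlap for 0 members, against 0.712% of all genes.

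Enzymes that work beside these carriers, and the carriers' relatives, were counted from lists chosen with earlier results of these data known. Calls were by edgeR's quasi-likelihood test as above, which called 2.16% of all genes at 2 h and 11.4% at 4 h. Medians of the log2 fold change stand beside 0.01 (2 h) and -0.01 (4 h) over all genes. Of 9 urea cycle and ornithine genes (medians 0.27 and 0.35), 0 were called at 2 h, with 1 at an unadjusted p under 0.05, and 3 rose at 4 h: Asl by 0.74 ± 0.20 (SE, log2), Ass1 by 0.65 ± 0.18 and Arg1, which forms ornithine, by 0.47 ± 0.14. Otc, the matrix enzyme that uses the ornithine, was at 0.09 ± 0.12 at 2 h and -0.01 ± 0.12 at 4 h, not called and named here after its values were seen. Of 10 malate-aspartate, citrate and glycerophosphate shuttle genes (medians 0.12 and 0.09) 0 were called at 2 h, with 1 at an unadjusted p under 0.05, and at 4 h Got1, the cytosolic aspartate aminotransferase, rose by 1.34 ± 0.30. Of 5 carnitine shuttle genes (medians 0.20 and 0.31) 1 rose at 4 h, Slc22a5, the plasma membrane carnitine transporter, by 0.90 ± 0.20, and 0 were called at 2 h, with 1 at an unadjusted p under 0.05. Of 8 heme and iron-sulfur genes (medians 0.06 and -0.03) 2 rose at 2 h, Alas1, the first enzyme of heme synthesis, by 1.66 ± 0.32 and Tfrc, the transferrin receptor, by 1.13 ± 0.27, and 1 fell at 4 h, Abcb10, by 0.30 ± 0.08. Of 7 branched-chain amino acid genes (medians -0.01 and 0.06) 0 were called at 2 h, with 2 at an unadjusted p under 0.05, and 1 fell at 4 h, Bckdk, the kinase of the branched-chain ketoacid dehydrogenase, by 0.57 ± 0.11.

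Other proteins of the mitochondrial membranes and regulators were counted in the same way, beside 2.16% of all genes called at 2 h and 11.4% at 4 h. Of 12 other carriers and channels (medians 0.09 and 0.06) 1 rose at 4 h, Sfxn1, a mitochondrial serine transporter, by 0.49 ± 0.08 (SE, log2), and 0 were called at 2 h, with 1 at an unadjusted p under 0.05. Of 10 genes that import carriers into the inner membrane 0 were called at either duration, with 0 at 2 h and 2 at 4 h at an unadjusted p under 0.05, the lowest p at 4 h belonging to Tomm70a, the receptor for carrier precursors, at -0.15 ± 0.07 (edgeR, Benjamini-Hochberg adjusted p = 0.191). Of 3 fitted SLC25 proteins with other symbols, Ucp2, Mtch1 and Mtch2, 0 were called, with 0 at 2 h and 1 at 4 h at an unadjusted p under 0.05, Ucp2 standing at 0.39 ± 0.17 at 4 h (edgeR, Benjamini-Hochberg adjusted p = 0.159). Of 7 glycine, serine and folate genes (medians 0.03 and 0.39) 0 were called, with 0 at 2 h and 3 at 4 h at an unadjusted p under 0.05, Gcsh, a glycine cleavage subunit, being at -0.23 ± 0.08 at 4 h (edgeR, Benjamini-Hochberg adjusted p = 0.0836). Of 12 regulators of mitochondrial and fasting genes (medians -0.01 and 0.13) 3 rose at both durations: Ppargc1a, a coactivator of mitochondrial genes, by 1.69 ± 0.23 and 1.63 ± 0.22, Foxo1 by 1.06 ± 0.12 and 0.99 ± 0.11, and Cebpb by 1.28 ± 0.26 and 0.91 ± 0.25. Of 6 glucocorticoid-responsive genes (medians 1.49 and 1.499) 3 rose at 2 h and 5 at 4 h, Tat, tyrosine aminotransferase, by 1.99 ± 0.30 and 2.35 ± 0.30. What these genes share with the called carriers was not tested.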

How the data were processed

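Liver RNA from 19 mice in 4 groups was sequenced as poly-A selected, stranded libraries, per the labels' protocols. Build GRCm38.p6 and the tools DESeq2 1.30.0, Salmon 1.4.0 and STAR appear, with no role, in the submitters' processing notes. The deposited counts are whole numbers for each gene; the sources used here do not say how transcript estimates became counts or whether strand was used. For tg against wt at each duration they also deposited tables with the mean of normalised counts (a signal per gene), the log2 fold change and its standard error, the test statistic (a score), and p-values; these gave gene names and the values credited to them. Of 14576 genes in the count table, 257 had no value in the 4 h libraries and were left out.

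Counts of the other 14319 genes were scaled with TMM factors and kept where edgeR's filter (count minimum 10, total 15) passed. The 4 group means were fitted over all libraries with edgeR 4.0.16 in R 4.3.3 (quasi-likelihood test, 15 residual degrees of freedom, biological coefficient of variation 0.183), with p-values adjusted by Benjamini-Hochberg over the 12493 fitted genes and a call at 0.05. CPM are counts relative to the TMM-scaled library total, and intervals are at 95%. Libraries of 1 group were not duplicates: chi-square over degrees of freedom was at least 21.2 in 36 pairs. Alternatives used DESeq2 1.42.0, limma-voom 3.58.1, other scaling, filters and blocks, and left out libraries. Scripts were tested on simulated data.

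The members and gene lists were chosen with earlier results of these data known. Members called in any comparison are given in every library, and others by range, by class, or by the highest and lowest 4 h change of a class. Of other genes, up to 4 called per list are named, or the lowest p at 4 h where none was called. The result for 1 listed gene is not reported here. Levels per kb, Slc25a1, Slc25a10, Slc25a12, Slc25a13, Slc25a16, Slc25a24, Slc25a30, Slc25a36, Slc25a39 and Slc25a47 were named after their values were seen. The same holds for the cholangiocyte markers and Hnf4a. Promoter windows are RefSeq's.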

Additional observations from a re-analysis of the deposited data

Results flagged for a closer look

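Of 36 groups of called members examined, 4 held a library far from the others of its group by Dixon's criterion, which chance meets in about 1 of 20 groups. Slc25a51 in tg 2 h had its lowest value in replicate 3, at 131 CPM, with the other 3 libraries between 160.0 and 163 CPM, and all 4 were above every wt library. Slc25a29 in tg 4 h was lowest in replicate 1, at 3.09 CPM, with the others between 3.82 and 4.08 CPM. Slc25a34 in wt 2 h was highest in replicate 4, at 6.29 CPM, with the others between 2.79 and 3.70 CPM, and without it the 2 h fold change was 0.13 on the log2 scale in place of -0.09. Slc25a42 in wt 4 h was lowest in replicate 1, at 69.5 CPM, with the others between 93.2 and 103 CPM. That library is also 1 of those with a low share of mitochondrially encoded counts.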

How the results depend on the processing

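Over all alternatives run, 2 to 4 members were called at 2 h (main value 3), 6 to 13 at 4 h (9), and 0 for the difference between durations and for wt 4 h against 2 h. With single libraries left out the ranges were 2 to 3 and 6 to 12, with 12 without wt 4 h replicate 1 and 6 without wt 4 h replicate 2 or 4. Calls of Slc25a15 and Slc25a51 at both durations, and of Slc25a22, Slc25a25, Slc25a34 and Slc25a42 at 4 h, held in every alternative. For tg 4 h against 2 h, 1 member was called, 3 with total counts only and with DESeq2, 2 with limma-voom with weights and with a block for the number ending each title, and 1 to 2 with single libraries left out. Replicate numbers are shared by the labels. Deviations of same-numbered tg and wt libraries correlated above 0.1 in 4 of 9 pairs (r from -0.33 to 0.19). Differently numbered pairs of the same duration ran from -0.39 to 0.28, so the numbers were not taken as pairs. With the replicate block 2 members were called at 2 h and 8 at 4 h. Slc25a27 at 4 h (0.06) turned to -0.016 with total counts only and -0.062 with 3 libraries left out, and ran from -0.13 to 0.21 with single libraries left out, below 0 without tg 4 h replicate 4, wt 4 h replicate 1 or wt 4 h replicate 5. Slc25a34 at 2 h (-0.09) turned to 0.024 with the title-number block and ran from -0.19 to 0.13 with single libraries left out, above 0 when replicate 3 of tg or replicate 4 of wt at 2 h was left out. The cause was not tested. Over all genes, 270 calls at 2 h became 425 with DESeq2, and 1423 at 4 h became 2296 with limma-voom with weights. The number of genes called thus moved with the alternative too, and the ranges of member counts are not read as results about the carriers alone. The summed family CPM under other scalings was added after seeing the data; tg minus wt was 777 to 964 CPM at 2 h and 907 to 1234 CPM at 4 h. Counts per library were 5 to 23 for Slc25a27 and 4 to 39 for Slc25a35, which limits their precision.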
